A study of Mus musculus with 26 samples.

Results

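The 34 genes described here encode the light-detection machinery of rod and cone photoreceptors, and they were measured in mouse RNA libraries prepared to profile astrocytes of the retina and optic nerve. They were the 34 of 54532 rows of the count table whose Ensembl gene IDs carry the listed symbols, 24 of them rod genes, genes shared by rods and cones or their regulators, and 10 of them cone genes. The 26 libraries fell into 5 kinds. Retina IP comprised 6 libraries of RNA immunoprecipitated (IP) from retinal astrocytes. Optic nerve head (ONH) IP and optic nerve proper (ONP) IP comprised 6 libraries each, the first from where axons leave the eye and the second from the myelinated nerve behind it. A further ONH IP library and a further ONP IP library, called adaptor libraries, were prepared alongside the retinal ones as controls for batch. Retina input, total retinal RNA taken with the IP, comprised 6 libraries. All animals were untreated mice at day 0. The 12 numbered nerve libraries formed batch 1, and the 12 retinal libraries with the 2 adaptor libraries formed batch 2. Genotype, age and the tag or driver of the immunoprecipitation were not given in the sources used here, and nothing says that the libraries of a group are from different mice. Tests below therefore reflect variation among the libraries, which may be technical.

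Total counts ran from 11164619 to 27431026 per library. Levels are given as CPM, counts scaled to a library total of 1000000. Astrocyte markers differed in level among the IP libraries: the summed level of 9 astrocyte markers (among them Gfap, Aqp4, Slc1a3 and Pax2) was 1236 to 9792 CPM in retina IP, 12513 to 25850 CPM in ONH IP and 12845 to 32562 CPM in ONP IP, against 363 to 1728 CPM in retina input. Retina IP libraries 1 and 5, at 1236 and 1573 CPM, lay within the range of the input libraries, and retina IP 6, at 2223 CPM, lay just above it. Input libraries 1 and 2 stood apart, with 8.17% and 15.2% of counts from mitochondrially encoded genes and 16782 and 17082 genes with a count. The other input libraries had 2.79% to 4.01% and 19835 to 20702 genes. The ONH adaptor library stood further apart and is described before the comparisons.

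In photoreceptors, an opsin excited by light activates the G protein transducin, which switches on a phosphodiesterase that breaks down cyclic GMP. Cation channels held open by cyclic GMP then close, and the cell hyperpolarises. Opsin kinase, arrestin and regulators of the G protein end the response, and calcium-sensing proteins restore cyclic GMP. Rods and cones use paralogous subunits for most steps, and the transcription factors Crx, Nrl and Nr2e3 set which are made. Photoreceptor cell bodies lie in the outer retina, whereas the optic nerve holds ganglion cell axons and glia.

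The promoters of 24 of the 34 genes were found in the RefSeq promoter table (GRCm38.p6), each running from 250 bases before the transcription start to 50 bases after it. Crx recognises the core TAATCC, which reads GGATTA on the other strand. It occurred in 8 of the 24 genes (33.3%; Cnga1, Cngb1, Crx, Gnat2, Gngt1, Guca1a, Sag and Unc119), against 8.14% of the 27025 genes in the table, counting either strand. A core of the Nrl site, TGCTGA or TCAGCA, occurred in 6 of the 24 (25%; Grk1, Opn1sw, Pde6b, Rgs9, Sag and Unc119), against 21.7% of all genes. These counts describe letters, not binding. The 4 promoters below are all among the 8 with a Crx core, which most of the 24 lack. No outer segment gene or transcription factor is shown. They belong to rod arrestin (Sag, chr1:87803430-87803729, plus strand), the cone transducin alpha subunit (Gnat2, chr3:108092816-108093115, plus strand), the rod transducin gamma subunit (Gngt1, chr6:3993758-3994057, plus strand) and a guanylate cyclase activator (Guca1a, chr17:47400557-47400856, minus strand). Capitals mark the Crx core, whose first base lies 87, 19, 44 and 57 bases before the start in that order, and in Sag also the Nrl core, 187 bases before it. The start is that of the promoter table. GENCODE M21 begins Gnat2 at 108092789 and Gngt1 at 3993792, so in that annotation the Crx cores of both lie inside the gene.
Sag: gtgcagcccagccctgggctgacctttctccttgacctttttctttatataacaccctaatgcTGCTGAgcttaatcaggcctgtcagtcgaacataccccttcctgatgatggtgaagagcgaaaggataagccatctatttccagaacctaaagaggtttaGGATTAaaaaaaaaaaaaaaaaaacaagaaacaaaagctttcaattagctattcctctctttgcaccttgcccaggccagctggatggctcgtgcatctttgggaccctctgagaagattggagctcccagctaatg
Gnat2: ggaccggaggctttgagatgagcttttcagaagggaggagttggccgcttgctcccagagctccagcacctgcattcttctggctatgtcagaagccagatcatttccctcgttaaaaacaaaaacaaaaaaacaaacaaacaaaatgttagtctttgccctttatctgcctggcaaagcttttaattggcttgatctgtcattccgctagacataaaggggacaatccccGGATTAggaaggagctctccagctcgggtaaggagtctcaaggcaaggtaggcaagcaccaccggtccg
Gngt1: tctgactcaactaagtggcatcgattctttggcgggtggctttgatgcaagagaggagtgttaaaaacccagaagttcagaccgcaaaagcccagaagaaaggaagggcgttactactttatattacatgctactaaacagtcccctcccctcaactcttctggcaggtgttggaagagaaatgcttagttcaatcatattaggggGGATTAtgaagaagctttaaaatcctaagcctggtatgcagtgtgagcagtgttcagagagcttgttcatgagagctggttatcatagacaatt
Guca1a: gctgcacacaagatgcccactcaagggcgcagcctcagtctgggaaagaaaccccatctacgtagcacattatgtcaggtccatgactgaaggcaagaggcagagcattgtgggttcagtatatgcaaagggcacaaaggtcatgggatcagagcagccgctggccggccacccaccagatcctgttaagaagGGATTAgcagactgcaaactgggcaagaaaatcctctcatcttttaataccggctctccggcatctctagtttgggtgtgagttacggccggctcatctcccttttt

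All 34 genes had counts in the ONH adaptor library, and between 23 and 34 of them had counts in each of the others. The 33 genes other than Gnb1, a beta subunit that many cell types make, took 0.0802% to 0.336% of counts in retina IP, 0.0163% to 0.103% in ONH IP, 0.00595% to 0.0154% in ONP IP and 0.131% to 1.40% in retina input. By this share every input library lay above every ONH library, and every ONH library lay above every ONP library. Retina IP overlapped both input and ONH IP. In the nerve the share leaned on Rom1 and Unc119, with 58.5 and 42.4 CPM in ONH 5 and 36.6 and 33.0 CPM in ONP 5. By the median level of the 34 genes, ONH 5 (1.01 CPM) lay below ONP 5 (1.13 CPM), so that order did not hold for the typical gene. Counting error on these shares was small beside the spread between libraries: the 95% Wilson interval of the lowest retina IP library was 0.0788% to 0.0816%. Such intervals cover counting error only.

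**Figure D1:**
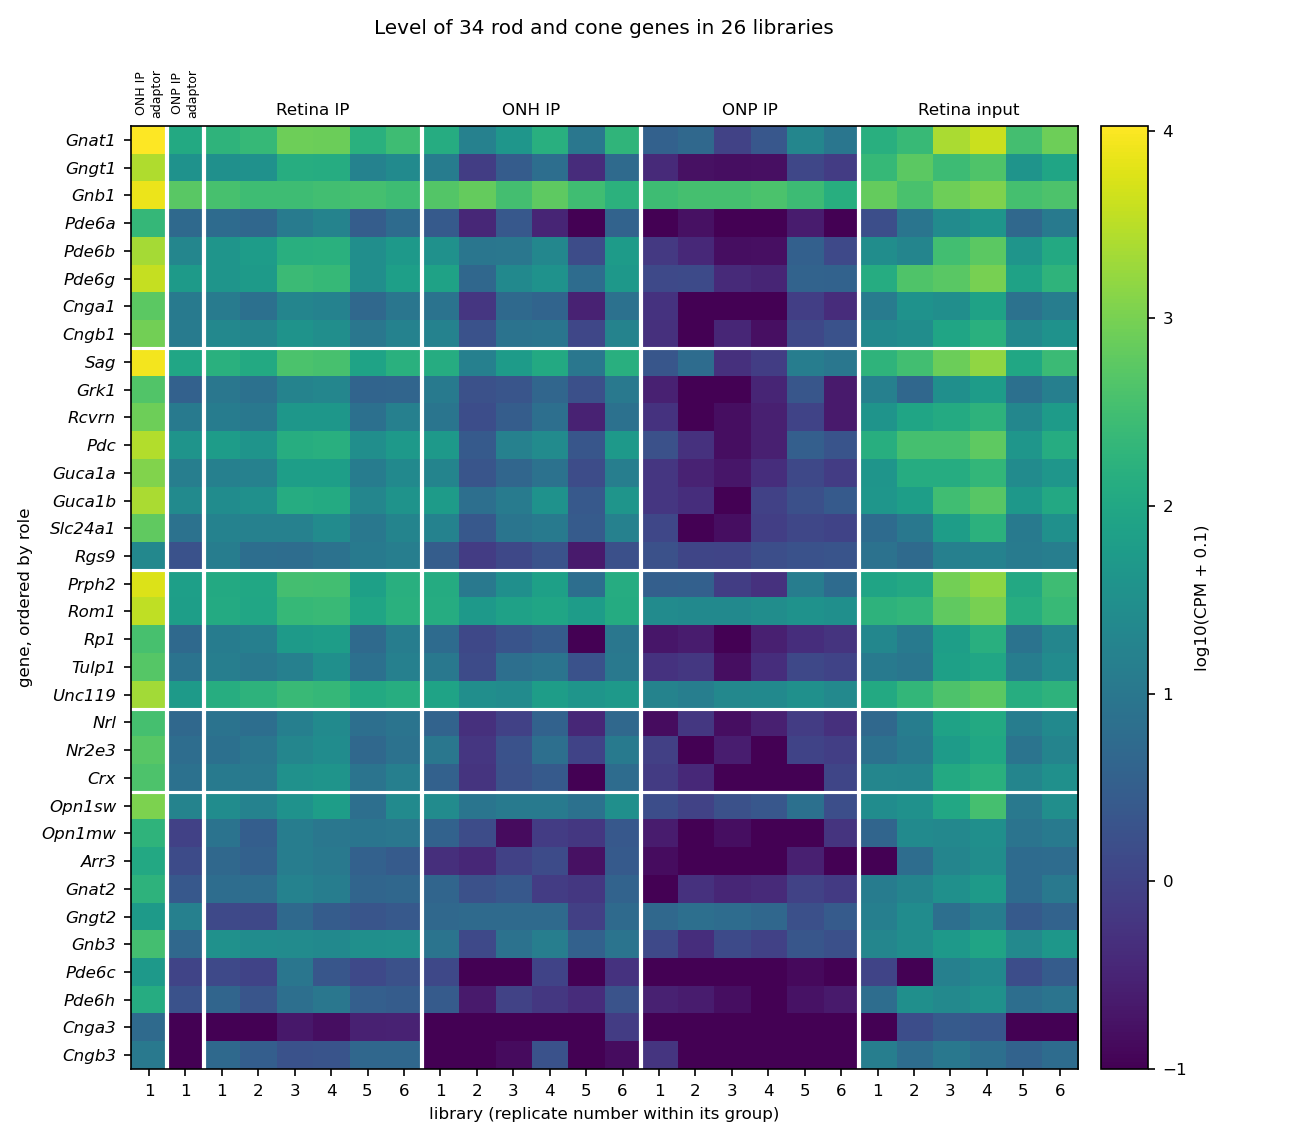
Level of each of the 34 genes (rows, ordered by role, white lines between roles) in each of the 26 libraries (columns, by group), as log10 of CPM plus 0.1. The ONH adaptor column is the brightest for 33 genes, and the ONP IP columns are the darkest for most of them; Gnb1, Rom1 and Unc119 remain visible in every library.

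Levels between genes were compared per kilobase of transcript. In retina IP the mean level was highest for Gnat1, the rod transducin alpha subunit (178 CPM per kilobase), followed by Pde6g, the inhibitory subunit of rod phosphodiesterase (129), Unc119, a carrier of lipid-modified transducin (129), Sag (128), the outer segment protein gene Rom1 (103) and Gnb1 (102). In retina input the order began with Gnat1 (588), Pde6g (441), Sag (322), Rom1 (263) and Gngt1 (234). In ONH IP, Gnb1 led with 138 CPM per kilobase, before Rom1 (57.9), Sag (47.8) and Gnat1 (38.8), and in ONP IP Gnb1 led with 96.8, before Rom1 (18.8) and Unc119 (16.8). On mm10, with GENCODE M21, Sag (ENSMUSG00000056055) lies at chr1:87803680-87845158 on the plus strand, Gnat2 (ENSMUSG00000009108) at chr3:108092789-108101432 on the plus strand, Gnb1 (ENSMUSG00000029064) at chr4:155491361-155559269 on the plus strand, and Gngt2 (ENSMUSG00000038811) at chr11:95837216-95845734 on the plus strand. The cone channel subunits Cnga3 and Cngb3 held the lowest places in retina IP, at 0.0417 and 0.750 CPM per kilobase. Across the 34 genes the rank order of mean levels was alike in retina IP and input (Spearman rho 0.977) and less so in ONH IP against input (0.888) and ONP IP against input (0.731); these are descriptions over 34 genes that share libraries and depth.

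The genes moved together from library to library within a group. Retina IP libraries 3 and 4 were the top pair for 26 of the 34 genes, and their summed level of the 23 rod, shared and regulatory genes without Gnb1 was 3228 and 3151 CPM, against a group median of 1182 and a lowest value of 735.6 CPM. Input libraries 3 and 4 were the top pair for 28 genes, and input 4 alone was the highest for 30. ONH libraries 1 and 6 were the top pair for 24 genes, and ONP library 5 was the highest for 23. Rgs9, Cngb3 and Gnb3, picked out after their values were seen, ran the other way within retina IP. Cngb3 had 5.01, 4.74 and 4.76 CPM in libraries 1, 5 and 6, against 1.76 and 1.9 CPM in libraries 3 and 4. In the same order Rgs9 had 13.3, 11.2 and 13.7 CPM against 6.29 and 7.65 CPM, and Gnb3 had 34.6, 31.6 and 32.9 CPM against 26.9 and 23.7 CPM. The astrocyte markers did not follow the same order: they summed to 6092 to 9792 CPM in retina IP libraries 2 to 4 and to 1236 to 2223 CPM in libraries 1, 5 and 6, while retina IP 2, with 0.114% of counts in the 33 genes, lay with libraries 1, 5 and 6.

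**Figure D2:**
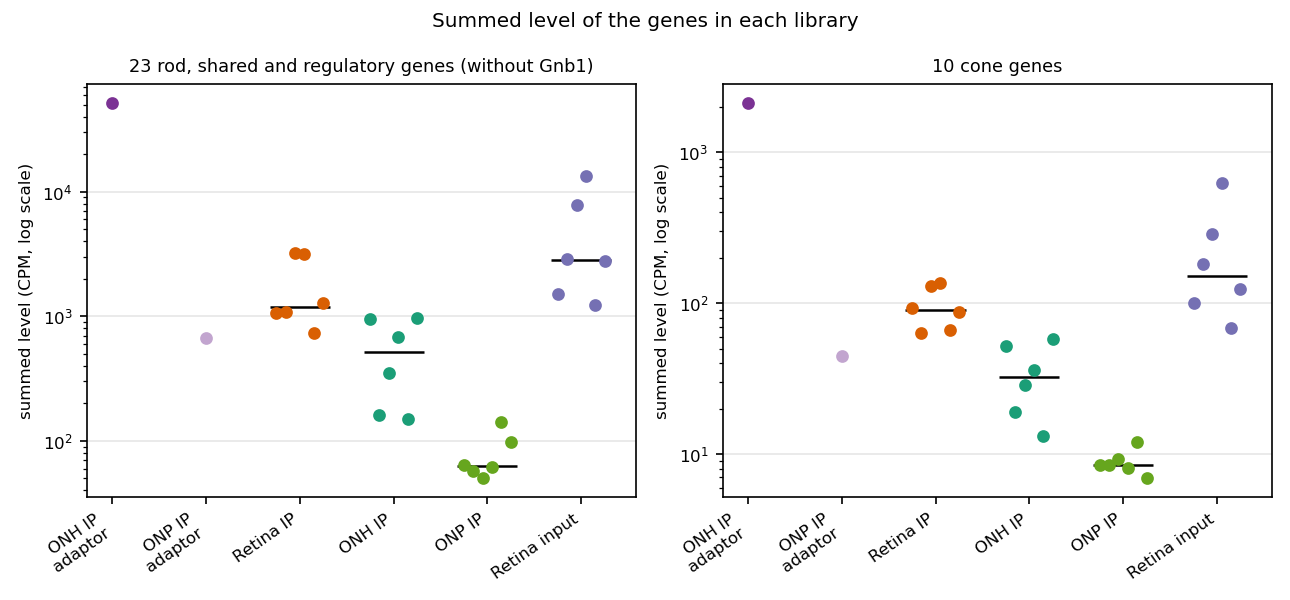
Summed level in CPM (log scale) of the 23 rod, shared and regulatory genes without Gnb1 (left) and of the 10 cone genes (right); each point is a library and each bar a group median. The medians for the rod panel are 1182 CPM in retina IP, 515.8 in ONH IP, 63.2 in ONP IP and 2838 in retina input, with the ONH adaptor library at 51372.

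The ONH adaptor library held more photoreceptor RNA than any whole-retina library. The 33 genes took 5.35% of its counts (1106058 counts, interval 5.34% to 5.36%), and 33 of the 34 genes were higher in it than in every other library, the exception being Cngb3. Gnat1 reached 10583 CPM there, against 9.86 to 191 CPM in ONH libraries 1 to 6 and up to 4187 CPM in retina input. Sag reached 8629 CPM against 9.79 to 147 CPM, and Gngt1 2633 CPM against 0.338 to 13.0 CPM. Over the 34 genes the adaptor's ratio to the mean of ONH 1 to 6 had a median of 101 and ran from 12.2 for Gngt2 to 549.8 for Gngt1. Against the mean of retina input the ratio had a median of 9.81, from 1.36 for Cngb3 to 20.8 for the opsin kinase Grk1. That ratio had a median of 11.7 for the 24 rod, shared and regulatory genes and of 7.37 for the 10 cone genes.

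By sum, markers of several other retinal cells were higher in this library than in ONH 1 to 6. Its 9 bipolar markers summed to 372 CPM, against 31.3 to 48.0 CPM in ONH 1 to 6 and 115.5 to 221 CPM in retina input. Its 8 ganglion cell markers summed to 216 CPM, against 19.4 to 57.2 CPM in ONH 1 to 6 and 3991 to 6390 CPM in input. Pigment epithelium, the layer that abuts the outer segments, was marked by 7 genes that summed to 3097 CPM, against 88.8 to 908 CPM in ONH 1 to 6 and 20.5 to 206 CPM in input. Only 3 of those 7 pigment epithelium genes exceeded their mean in ONH 1 to 6 (median ratio 0.62), so that sum rested on few genes. By sum, Muller glia were an exception, with 7 markers at 2649 CPM, within the 2232 to 3486 CPM of ONH 1 to 6. Singly, 5 of these 7 exceeded their mean in ONH 1 to 6 (median ratio 1.87). Nerve markers were present: 6 oligodendrocyte genes summed to 28974 CPM, within the 24394 to 63220 CPM of ONH 1 to 6, and the astrocyte markers summed to 5438 CPM, below their 12513 to 25850 CPM. The library is single, so no error between libraries can be given for it.

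The ONP adaptor library showed a smaller difference of the same kind. The 33 genes took 0.0718% of its counts, against 0.00595% to 0.0154% in ONP 1 to 6, and 31 of the 34 genes were above all 6 of those libraries. Gnat1 had 111 CPM in it, against 0.865 to 20.3 CPM in ONP 1 to 6, and Sag had 94.6 CPM against 0.407 to 13.5 CPM. The exceptions were Rgs9, which sets the speed at which transducin switches off, and Cnga3 and Cngb3, both at 0 in the ONP adaptor. Its pigment epithelium markers summed to 19.5 CPM and its bipolar markers to 31.5 CPM, both within the ranges of 3.51 to 38.2 and 21.3 to 36.5 CPM in ONP 1 to 6. Its ganglion cell markers summed to 37.2 CPM, above the 11.7 to 22.7 CPM of ONP 1 to 6. Both adaptor libraries belonged to batch 2 with the retinal libraries; the part of batch in these levels was not tested.

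**Figure D3:**
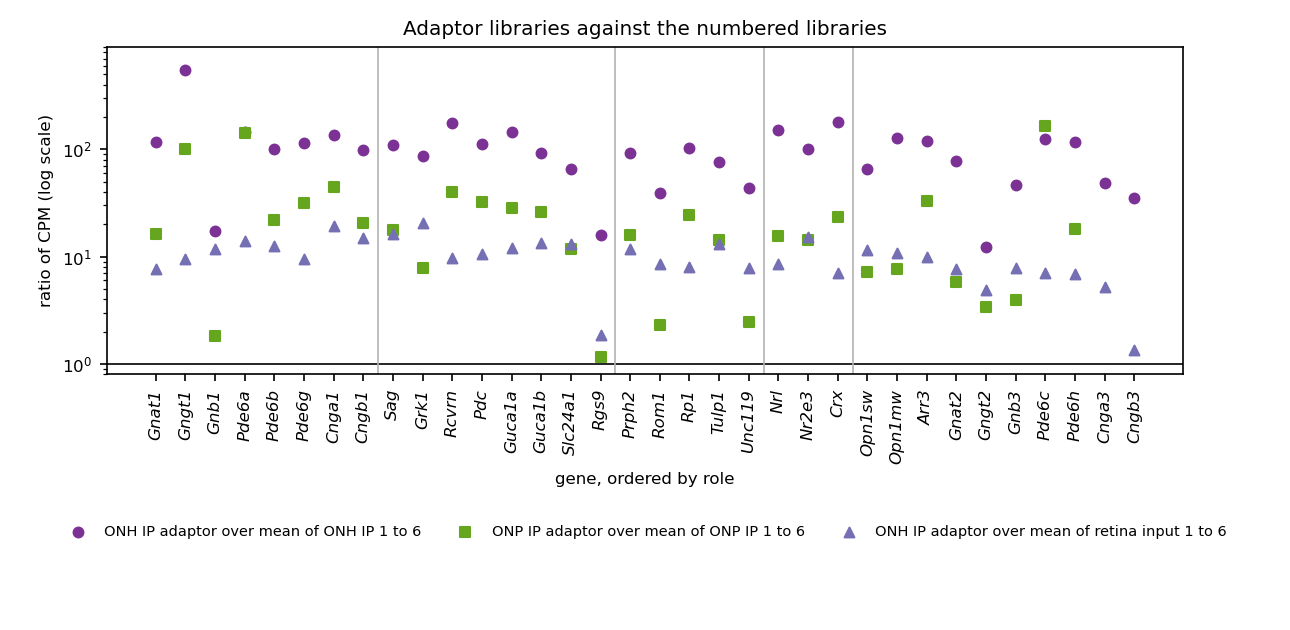
Ratio of CPM (log scale) for each gene, ordered by role: ONH adaptor over the mean of ONH 1 to 6, ONP adaptor over the mean of ONP 1 to 6, and ONH adaptor over the mean of retina input 1 to 6. Every ratio of the ONH adaptor lies above 1, with medians of 101 and 9.81; ONP adaptor ratios are not drawn for Cnga3 and Cngb3, and that of Pde6c rests on 1 count in ONP 1 to 6.

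The first comparison set retina IP against retina input, within batch 2. Every one of the 34 genes had a lower mean CPM in IP than in input, and edgeR's quasi-likelihood test with Benjamini-Hochberg adjustment called none of them. Of the 33 genes that passed the low-count filter (Cnga3 did not), all had a negative log2 fold change, with a median of -1.34, against 0.02 over all 15181 genes tested. No gene of the table was called higher (0% of genes) or lower (0%) at an adjusted p under 0.05. At an unadjusted p under 0.05, 21 of the 33 were lower, against 10.4% of all genes. DESeq2 called 12 of the 33 lower, against 7.09% of all genes, while limma-voom called none of any kind. A fit of all 26 libraries called 6 lower (Gngt1, Gnb1, Rcvrn, Rom1, Gngt2 and Pde6h), against 5.42% of all genes.

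Transducin and its effectors showed the pattern gene by gene. Gnat1 (ENSMUSG00000034837, mm10 chr9:107674474-107679712, minus strand) had lowest, median and highest levels of 157, 263 and 840 CPM in retina IP, against 146, 585 and 4187 CPM in input. Its log2 fold change was -1.6 (SE 0.737, edgeR adjusted p = 0.218). The ranges overlapped, since 4 of the 6 input values (libraries 1, 2, 5 and 6) lay below the highest IP value. Input libraries 3 and 4, at 2477 and 4187 CPM, lay above every IP value. Gngt1, which anchors the rod G protein to the membrane, had 17.0, 34 and 137 CPM in IP, against 39.7, 259 and 583 CPM in input, with a log2 fold change of -2.34 (SE 0.732, adjusted p = 0.0866). Gnb1 had 285, 309 and 364 CPM in IP, against 344, 558 and 1106 CPM in input, and its log2 fold change was -1.02 (SE 0.277, adjusted p = 0.0687), the lowest adjusted p of the 33 genes. Its IP values were tightly grouped, and the values of IP libraries 1 and 5 exceeded the lowest input value. Among the phosphodiesterase subunits, Pde6g had 30.6, 62.3 and 266 CPM in IP, against 79.2, 313 and 990 CPM in input; its log2 fold change was -1.80 (SE 0.693, adjusted p = 0.145). The catalytic subunits had log2 fold changes of -0.92 for Pde6a (adjusted p = 0.449) and -1.03 for Pde6b (adjusted p = 0.435). The rod channel subunits Cnga1 and Cngb1 had -1.43 (adjusted p = 0.151) and -1.35 (adjusted p = 0.118). Over the 8 rod transduction genes the median log2 fold change was -1.39.

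Genes that end the light response or read out calcium had a median of -1.42 over 8. Sag had 81.5, 155 and 394 CPM in IP, against 99.5, 292 and 1540 CPM in input; its log2 fold change was -1.30 (SE 0.600, adjusted p = 0.220). Rcvrn, the calcium sensor that restrains opsin kinase, had 7.08, 14 and 45.9 CPM in IP, against 20.6, 73.0 and 177 CPM in input (-1.91, SE 0.592, adjusted p = 0.0844). Pdc, a phosphoprotein that binds the transducin beta and gamma subunits, had 29.7, 56.3 and 150 CPM in IP, against 43.8, 241 and 604 CPM in input (-1.85, SE 0.600, adjusted p = 0.0949). In these 3 genes the IP and input ranges overlapped, and libraries 3 and 4 were the highest on both sides. Guca1a had 12.8, 20 and 66.3 CPM in IP, against 26.3, 85.7 and 213 CPM in input (-1.61, SE 0.607, adjusted p = 0.137), and Slc24a1, the rod exchanger that expels calcium, had 10.2, 16.4 and 26.8 CPM in IP, against 5.59, 22.2 and 166 CPM in input (-1.39, SE 0.633, adjusted p = 0.214). Rgs9 lay closest to 0 of the whole list, with 6.29, 9.43 and 13.7 CPM in IP, against 5.46, 13.2 and 16.7 CPM in input (-0.31, SE 0.316, adjusted p = 0.631).

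Outer segment genes had a median of -1.18 over 5. Rom1, a partner of peripherin in shaping disc rims, had 91.1, 135 and 254 CPM in IP, against 134, 225 and 1008 CPM in input (-1.32, SE 0.471, adjusted p = 0.119). Prph2, the peripherin of the disc rim, had 70.1, 129 and 330.3 CPM in IP, against 86.5, 198 and 1483 CPM in input (-1.34, SE 0.670, adjusted p = 0.256). Unc119 had 112, 155 and 255 CPM in IP, against 113, 195 and 578 CPM in input (-0.68, SE 0.383, adjusted p = 0.316). Rp1, which organises the axoneme, had 5.35, 13.9 and 63.8 CPM in IP, against 8.20, 20.6 and 145 CPM in input (-0.61, SE 0.717, adjusted p = 0.690). Its fold turned to 0.18 without input library 4, the only library whose omission changed a sign among the 33 genes. The transcription factors had a median of -1.49 over 3: Nrl, which specifies rods, had 6.31, 8.34 and 25.5 CPM in IP, against 4.90, 19.0 and 113 CPM in input (-1.74, SE 0.641, adjusted p = 0.129).

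The 9 cone genes tested had a median of -1.31, close to the -1.35 of the 24 rod, shared and regulatory genes. The lowest log2 fold changes were those of Gngt2, the cone transducin gamma subunit (-2.48, SE 0.685, adjusted p = 0.0694), and Pde6h, the cone counterpart of Pde6g (-2.07, SE 0.595, adjusted p = 0.0732). Gngt2 had 1.11, 2.21 and 5.17 CPM in IP, against 2.61, 10 and 27.4 CPM in input. Pde6h had 2.02, 3.68 and 9.93 CPM in IP, against 6.28, 15.8 and 34.6 CPM in input. Input values of both genes overlapped the IP ones at the low end. Gnb3, the cone beta subunit, which ON bipolar cells also make, had 23.7, 29.4 and 34.6 CPM in IP, against 19.8, 37.3 and 85.6 CPM in input (-0.55, SE 0.307, adjusted p = 0.311). Opn1sw, the short-wavelength opsin, had 6.71, 26.1 and 61.4 CPM in IP, against 10.5, 32.4 and 343 CPM in input, a range that input library 4 set. Arr3, cone arrestin, had 2.65, 4.19 and 13.4 CPM in IP, against 0, 6.06 and 28.9 CPM in input (-0.72, SE 0.822, adjusted p = 0.678). Cnga3 had at most 0.204 CPM in IP and 2.59 CPM in input.

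These differences ran alongside those of other cell types and of RNA quality. The 9 bipolar markers summed to 64.0 to 159 CPM in IP, against 115.5 to 221 CPM in input; at most 2 of them were at 0 in any of these libraries. The 7 Muller glia markers summed to 4026 to 11657 CPM in IP, against 1554 to 4805 CPM in input, and the 8 ganglion cell markers to 911 to 5444 CPM in IP, against 3991 to 6390 CPM in input. Retina IP 2 to 4, the libraries highest in astrocyte markers, had the highest Muller glia and the lowest ganglion cell sums of the IP libraries. The part of these cell types in the fold changes was not tested. Both IP and input are bulk retinal RNA, so a lower level in IP is a smaller share of its counts and not a level per cell. Mitochondrial transcripts took 0.155% to 2.23% of counts in IP, against 2.79% to 15.2% in input; their part in the fold changes was not tested. Without input libraries 1 and 2 no member was called either, and the median log2 fold change was -1.57. The mean of input libraries 1 and 2 lay below the mean of input 3 to 6 for 30 of the 34 members. Inputs 3 and 4 raised the latter mean. The 33 genes without Gnb1 took 0.817% and 1.40% of counts in inputs 3 and 4. Inputs 1 and 2, at 0.160% and 0.308%, did not lie below inputs 5 and 6, at 0.131% and 0.291%. The ratio of the 2 means had a median of 0.269 over 19 members above 2000 bases. It was 0.433 over 12 of 1000 to 2000 bases and 0.819 over 3 shorter ones. It was above 1 for Gngt2 (3.15), Gngt1 (1.95), Cngb3 (1.5) and Pde6h (1.03), and was 0.0980 for Gnat1. Input library 4 decided more of the size of the differences: without it the median log2 fold change of the 33 genes was -0.84, and 10 of them moved by over 1.5 times, among them Gnat1 (to -0.87), Sag (to -0.70), Pde6b (to -0.26), Slc24a1 (to -0.49), Prph2 (to -0.64) and Opn1sw (to -0.57). Without input library 2, Gngt1 came to -1.75 and Gngt2 to -1.77.

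**Figure D4:**
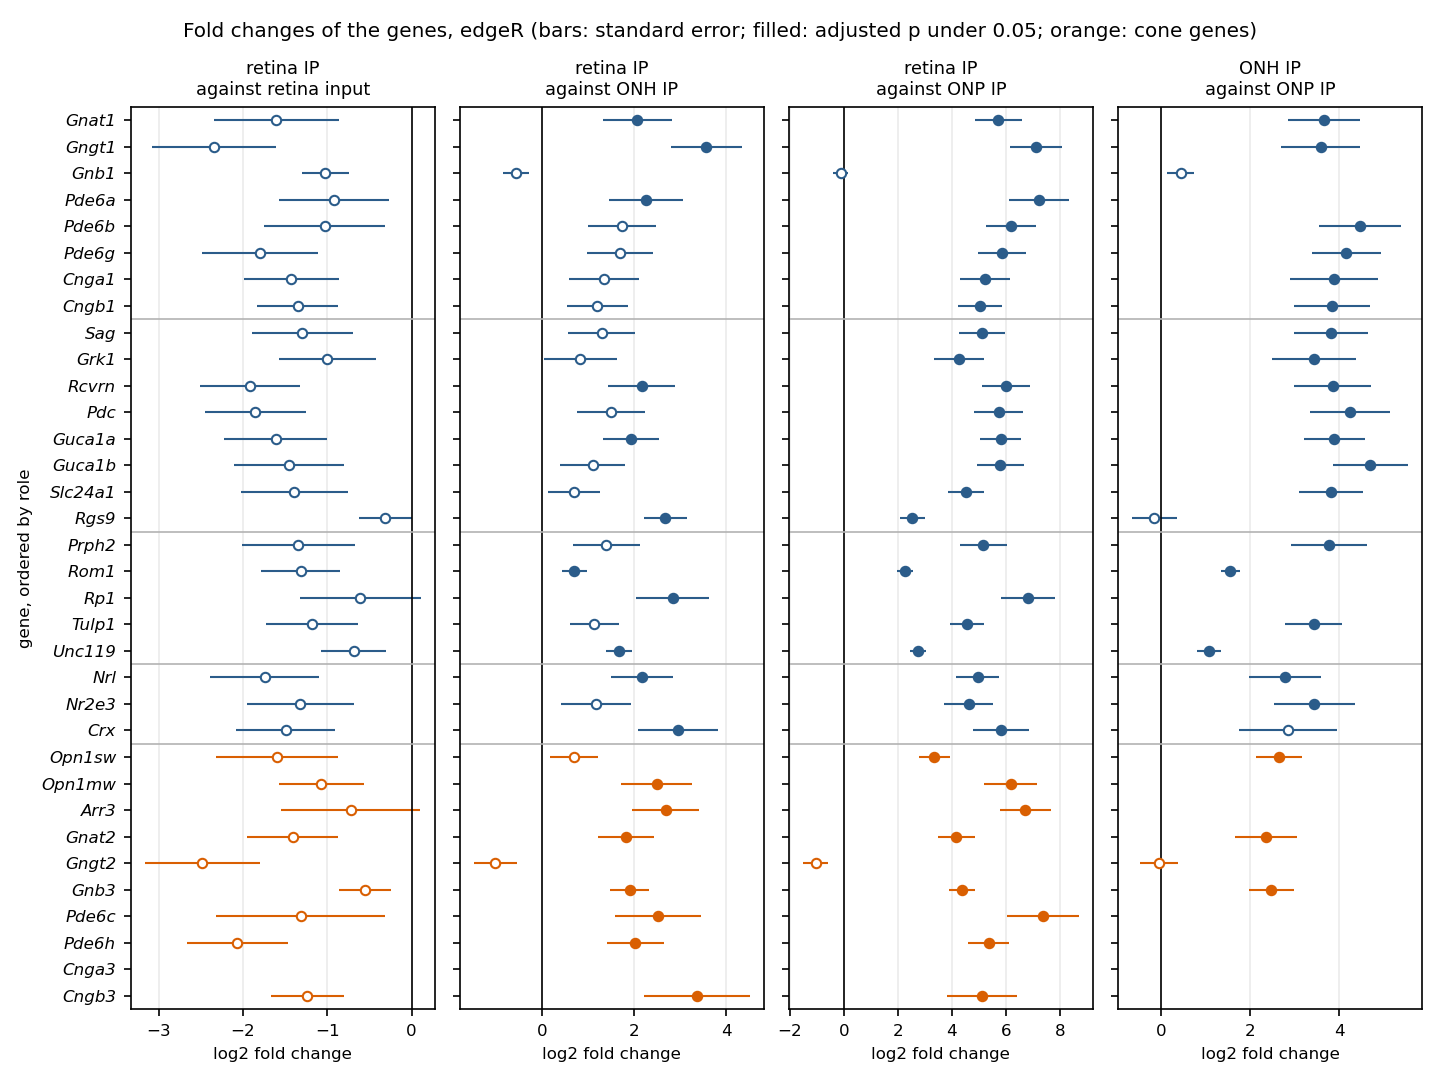
Log2 fold changes (points) with their standard errors (bars) for the 34 genes in the 4 comparisons, from edgeR; filled points have an adjusted p under 0.05, orange marks cone genes, and genes without a point did not pass the low-count filter. The first panel is all open and negative, the last panel is filled for 22 of 26 genes, and Gnb1 and Gngt2 are open in every panel.

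The comparison of ONH IP with ONP IP lay within batch 1. Photoreceptor transcripts were higher in the ONH for nearly every member: 33 of 34 genes had a higher mean CPM there, the exception being Rgs9. Of the 26 genes that passed the low-count filter, edgeR called 22 higher, against 8.57% of all genes, and none lower, against 8.01% of all genes. Pde6a, Rp1, Opn1mw, Arr3, Pde6c, Pde6h, Cnga3 and Cngb3 did not pass. A gene low in ONP passes that filter only through its ONH libraries, so the counts over tested genes describe those genes and not all 34. The median log2 fold change of the 26 was 3.52, against -0.02 for all genes. With limma-voom 11 of the 26 were called higher, where 1200 of 14753 genes were. Of the genes with folds below, limma-voom did not call Gngt1, Pde6b, Cnga1, Cngb1, Guca1b, Nrl and Gnat2, with adjusted p of 0.0517 to 0.0996.

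Rod transduction genes rose in 6 of 7 tested, by log2 fold changes of 3.59 to 4.47. Gnat1 had lowest, median and highest levels of 9.86, 87.2 and 191 CPM in ONH IP, against 0.865, 4.16 and 20.3 CPM in ONP IP. It rose by 3.67 on the log2 scale (SE 0.812, edgeR adjusted p = 0.0113), and the ranges overlapped only through ONP library 5 and the 2 lowest ONH libraries. Gngt1 had 0.338, 4.10 and 13.0 CPM in ONH IP, against 0.0509, 0.180 and 1.06 CPM in ONP IP (3.59, adjusted p = 0.0176). Pde6b had 1.35, 15.3 and 58.3 CPM in ONH IP, against 0.0509, 0.430 and 3.35 CPM in ONP IP (4.47, adjusted p = 0.00852). Pde6g, with 4.67, 30.1 and 79.2 CPM in ONH IP against 0.236, 1.23 and 3.79 CPM in ONP IP, lay wholly apart (4.16, adjusted p = 0.00593). The channel genes Cnga1 and Cngb1 rose by 3.88 (adjusted p = 0.0192) and 3.84 (adjusted p = 0.0113). The beta subunit Gnb1 was the exception of this group, with 172, 408 and 685 CPM in ONH IP, against 142, 317 and 394 CPM in ONP IP (0.45, SE 0.305, adjusted p = 0.331).

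Shut-off and calcium genes rose in 7 of 8. Sag had 9.79, 85.7 and 147 CPM in ONH IP, against 0.407, 3.98 and 13.5 CPM in ONP IP (3.82, SE 0.834, adjusted p = 0.0109). Guca1b, a second guanylate cyclase activator, had 2.43, 24.5 and 58.1 CPM in ONH IP, against 0, 0.679 and 2.56 CPM in ONP IP, and its log2 fold change of 4.70 (SE 0.847, adjusted p = 0.00483) was the highest of the list. The exception was Rgs9, which other neurons also make: it had 0.135, 1.35 and 2.98 CPM in ONH IP, against 0.966, 1.61 and 1.88 CPM in ONP IP (-0.14, SE 0.503, adjusted p = 0.869).

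Outer segment genes rose in all 4 tested, by 1.07 to 3.77, and the smaller changes belonged to genes that were also counted well in the nerve proper. Rom1 had 50.4, 82.4 and 130 CPM in ONH IP, against 23.6, 28.1 and 36.6 CPM in ONP IP, with every ONH library above every ONP library (1.56, SE 0.220, adjusted p = 0.00135). Unc119, a gene expressed well beyond the retina, had 26.6, 46.0 and 81.9 CPM in ONH IP, against 14, 22.5 and 33.0 CPM in ONP IP (1.07, SE 0.267, adjusted p = 0.0181). Of the transcription factors, Nrl had 0.270, 2.31 and 4.94 CPM in ONH IP, against 0.0485, 0.290 and 0.693 CPM in ONP IP (2.79, SE 0.805, adjusted p = 0.0319). That call did not hold in 6 of the 12 fits that left out a library (ONH 1 or 6, ONP 1, 3, 4 or 6), with adjusted p up to 0.0728. Crx had 0, 2.06 and 5.97 CPM in ONH IP, against 0, 0.139 and 1.01 CPM in ONP IP, and was not called (2.85, SE 1.10, adjusted p = 0.0917). It was called in a fit of the 14 nerve libraries with a batch term (3.66, adjusted p = 0.0154).

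Cone genes were counted sparsely in the nerve, and 4 of 10 could be tested. Opn1sw had 7.36, 11.4 and 32.2 CPM in ONH IP, against 0.901, 1.58 and 7.11 CPM in ONP IP, again without overlap (2.66, SE 0.515, adjusted p = 0.00700). Gnb3 had 1.2, 8.01 and 13.7 CPM in ONH IP, against 0.346, 1.24 and 2.08 CPM in ONP IP (2.48, SE 0.512, adjusted p = 0.00865). Gnat2 had 0.540, 2.01 and 4.17 CPM in ONH IP, against 0, 0.355 and 0.875 CPM in ONP IP (2.36, SE 0.693, adjusted p = 0.0342); leaving out ONH 1, 3 or 6 or ONP 2, 3, 4 or 6 ended that call, with adjusted p up to 0.0857. Gngt2 behaved unlike the other cone genes, with 0.810, 5.29 and 5.48 CPM in ONH IP, against 1.6, 4.86 and 6.72 CPM in ONP IP (-0.04, SE 0.425, adjusted p = 0.958).

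The 6 members whose ONH and ONP libraries did not overlap were Pde6g, Guca1a, Slc24a1, Rom1, Tulp1 and Opn1sw, out of 26 tested, against 3.94% of all genes. Gngt2 was low in the same libraries as 5 microglial markers: in ONH 5 and ONP 5 it had 0.810 and 1.6 CPM while the markers summed to 90.4 and 130 CPM, and in the other nerve libraries it had 2.62 to 6.72 CPM while they summed to 412 to 1282 CPM. The part of microglia in its level was not tested. Pigment epithelium markers also differed between the nerve regions, at 88.8 to 908 CPM in ONH IP with none of 7 at 0 in any library, against 3.51 to 38.2 CPM in ONP IP with up to 2 of 7 at 0. Bipolar markers summed to 31.3 to 48.0 CPM in ONH IP with 0 to 5 of 9 at 0, and to 21.3 to 36.5 CPM in ONP IP with 4 to 7 of 9 at 0. Muller glia markers summed to 2232 to 3486 CPM in ONH IP, against 1535 to 1989 CPM in ONP IP, and ganglion cell markers to 19.4 to 57.2 CPM in ONH IP, against 11.7 to 22.7 CPM in ONP IP. Amacrine and horizontal cell markers, 8 in all, ran the other way. They summed to 12.5 to 55.8 CPM (median 28.4) in ONH IP, against 38.2 to 154 CPM (median 91.0) in ONP IP. The part of these cell types in the photoreceptor differences was not tested.

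Retina IP was then set against each nerve region, to compare astrocyte libraries of different origin. Over the 18 IP libraries without the adaptors, photoreceptor RNA was higher in retina IP than in ONP IP for nearly all members tested, and higher than in ONH IP for 18 of 33. Against ONP IP, edgeR called 31 of 33 higher (29.6% of all genes were) and none lower (29.3% of all genes were), and 30 lay wholly above (21.6% of all genes). Against ONH IP, it called 18 of 33 higher (29.3% of all genes) and none lower (29.4%), and 9 lay wholly above (18.6% of all genes). The median log2 fold changes were 5.16 over ONP IP and 1.74 over ONH IP, each near 0 for all genes. A member near 0 in the nerve passes the low-count filter only through libraries where it is higher. Pde6a, with a mean of 0.0359 CPM in ONP IP, is such a member. The counts called and wholly above are therefore partly set by the filter. Here the retinal and nerve libraries came from different batches, so tissue and batch cannot be told apart.

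Gnat1 averaged 414 CPM in retina IP, 90.3 CPM in ONH IP and 6.86 CPM in ONP IP, a log2 fold change of 2.07 over ONH IP (SE 0.744, adjusted p = 0.0224) and of 5.72 over ONP IP (SE 0.881, adjusted p = 2.01e-05). The call over ONH IP was lost without retina IP library 3 (1.74, adjusted p = 0.0538). Its cone paralog Gnat2 averaged 8.59, 2.22 and 0.407 CPM in the same groups, higher by 1.82 (adjusted p = 0.0151) and 4.17 (adjusted p = 4.22e-05). Sag averaged 211 CPM in retina IP, 78.9 CPM in ONH IP and 5.39 CPM in ONP IP, and passed only against ONP IP (5.10, adjusted p = 4.74e-05; 1.30 over ONH IP, adjusted p = 0.129). Its cone counterpart Arr3 averaged 6.44, 0.900 and 0.0385 CPM, higher by 2.69 (adjusted p = 0.00370) and 6.73 (adjusted p = 7.39e-06). Unc119 averaged 172, 48.9 and 22.3 CPM, higher by 1.68 (adjusted p = 4.62e-05) and 2.75 (adjusted p = 2.33e-07). The remaining called genes over ONP IP had log2 fold changes of 2.27 to 7.23, leaving out Pde6c, which had 1 count in all ONP libraries.

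Only Gnb1 and Gngt2 were called in neither of these comparisons. Gnb1 averaged 319 CPM in retina IP, 429.5 CPM in ONH IP and 301.0 CPM in ONP IP, with log2 fold changes of -0.56 (adjusted p = 0.0895) and -0.11 (adjusted p = 0.759). Without ONH library 6 the first of these was called (adjusted p = 0.0148). Gngt2 averaged 2.44, 4.52 and 4.44 CPM, with -1.01 (adjusted p = 0.0719) and -1.05 (adjusted p = 0.0622). Leaving out ONH 5 or retina IP 3 brought Gngt2 under the threshold in both comparisons, as did leaving out ONP 5 against ONP IP, with adjusted p down to 0.0169 over ONH IP and 0.0146 over ONP IP.

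The adaptor libraries allow batch to be fitted as a term over the 20 IP libraries, and that fit turned the results against ONH IP round. Against ONH IP it called 31 of 33 members lower in retina IP (21.1% of all genes were) and none higher (2080 of 16355 genes were), with a median log2 fold change of -4.18. Gnat1 came to -3.94, Sag to -4.65 and Unc119 to -2.77. Against ONP IP it called none higher (2116 of 16355 genes were) and Gnb1 and Gngt2 lower (19.9% of all genes were), with a median of -0.23. Being 2 of 33, the lower calls against ONP IP are not a result about the members. In that fit the ONH adaptor library, the one with 5.35% of its counts in these genes, and the ONP adaptor library alone carry the batch difference. With the batch term but without the ONH adaptor, 3 members were called lower against ONH IP (15.3% of all genes were) and 1 against ONP IP (17.3%). In that fit 29 of 33 log2 fold changes were negative against ONH IP, with a median of -2.51, and 30 of 33 were positive against ONP IP, with a median of 1.15.

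Paralog pairs, 8 in all, were compared as ratios of rod to cone counts per kilobase within a library. Pde6b over Pde6c, Cnga1 over Cnga3 and Cngb1 over Cngb3 are not given here. Gnat1 over Gnat2 had lowest, median and highest ratios of 26, 39 and 54.2 in retina IP, 8.36, 22 and 192 in ONH IP, and 10.1, 58.2 and 70.6 in retina input, with 53.9 in the ONH adaptor. These 3 ranges overlapped. In ONP IP the pair had 3.00, 10.1 and 20.4 over the 5 libraries with a Gnat2 count, all below retina IP. Pde6g over Pde6h had 32.7, 83.3 and 134 in retina IP, 58.8, 96.7 and 225 in ONH IP, and 41.2, 73.1 and 97.7 in input. In ONP IP that pair had 20.5, 30.8 and 178 over the 5 libraries with a Pde6h count, and its ranges in all of these groups overlapped. Sag over Arr3 had 18.8, 26.7 and 48.2 in retina IP and 47.2, 64.7 and 282 in ONH IP, a range that began at the top of the retinal one. In the gamma pair, Gngt1 over Gngt2 had 4.05, 13.5 and 22.3 in retina IP, 0.0674, 0.367 and 1.29 in ONH IP, 0.00414, 0.0172 and 0.319 in ONP IP, and 7.38, 10.9 and 20.1 in input. Every numbered nerve library lay below every retinal library. The ONH adaptor, at 23.2, lay above all of them, and the ONP adaptor, at 1.19, lay within the ONH range. The beta pair ran the other way, with Gnb1 over Gnb3 at 5.33, 6.39 and 8.08 in retina IP, 11.9, 30.1 and 338 in ONH IP, 52.3, 151 and 605 in ONP IP, and 5.48, 8.20 and 21.0 in input. Many of these ratios rested on few counts: Arr3 had 1 count in ONH library 5, 4 in ONH 2 and 7 in ONH 1, the library with the ratio of 282, and Gngt1 had 1 count in each of ONP 2, 3 and 4. Gnat2 had 8 counts in ONH 5, and Gnb3 had 5 in ONP 2.

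A wider list of 30 photoreceptor genes, chosen with earlier results of these data known, followed the 34 in part. In retina IP against input none of 29 tested was called, 28 had a negative log2 fold change, and the median was -0.98. In ONH IP against ONP IP, 10 of 19 tested rose, against 8.57% of all genes, and 2 fell, a share near the 8.01% of all genes. Of the 30 genes only these 19 passed the low-count filter, and a gene low in ONP IP passes only through its ONH libraries. Otx2, a transcription factor upstream of Crx that pigment epithelium also uses, rose by 5.21 (adjusted p = 0.00434), Rgs9bp, which anchors Rgs9, by 4.55 (adjusted p = 0.00402), and Aipl1, a chaperone of rod phosphodiesterase, by 4.08 (adjusted p = 0.0116). Gnb5, the beta subunit that stabilises Rgs9, rose by 0.48 (adjusted p = 0.00774). The genes that fell were Slc24a2 and Prom1. Against ONH IP and ONP IP, retina IP was higher for 16 and 23 of the 29 tested (29.3% and 29.6% of all genes) and lower for 1 and 2 (29.4% and 29.3%). The limit that the filter sets holds for these counts too.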

How the data were processed

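Estimated counts per gene for 26 libraries were deposited by the authors as a single table of whole numbers; per the submitters' processing notes they came from Salmon 1.6.0 with mm10. Per the labels' protocols, oligo-dT beads captured the mRNA and a Smart-Seq HT kit made the libraries. Symbols for 54409 of 54532 rows and transcript lengths came from GENCODE M21, and promoters from RefSeq. No column lacked a sample. CPM used library totals, 11164619 to 27431026 counts.

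Fold changes were fitted over all genes in R 4.3.3 with edgeR 4.0.16: TMM, filterByExpr (minimum count 10, minimum total 15), quasi-likelihood F test, Benjamini-Hochberg adjusted p under 0.05. Retina IP and input used 12 libraries, retina IP against nerve 18, and ONH against ONP 12, without covariates. Adaptor libraries entered alternatives only. Further alternatives used DESeq2 1.42.0, limma-voom 3.58.1, other scalings, a replicate block and leave-outs. The tests were tested on simulated data.

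Members and lists were chosen with earlier results of these data known. Folds were printed for any member against input, and elsewhere for paralog pairs, Crx, Nrl, Unc119 and members unlike most; Guca1b, Rom1 and Opn1sw were named after their values were seen. Figures used matplotlib 3.10.9.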

Additional observations from a re-analysis of the deposited data

Results flagged for a closer look

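The adaptor libraries, outside every comparison above except as alternatives, held signals far over their groups. In the ONH adaptor the median level was 1024 CPM over the 24 rod, shared and regulatory genes and 118 CPM over the 10 cone genes, against 1.49 to 16.9 and 0.439 to 3.22 CPM in ONH 1 to 6. In the ONP adaptor these medians were 13.2 and 1.53 CPM, against 0.0509 to 1.35 and 0 to 0.303 CPM in ONP 1 to 6.

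Among 129 groups of 6 values tested for a library far from the others, 11 had one. The nominal rate of about 1 in 20 is no fair yardstick for that count. The genes moved together between libraries, and some groups were at 0 in all but 1 library. In ONP 5 the values of Pde6b (3.35 CPM), Grk1 (2.11 CPM) and Opn1sw (7.11 CPM) were far above the other ONP libraries, which reached 1.21, 0.236 and 2.18 CPM. In retina input 4, Slc24a1 (166 CPM) and Opn1sw (343 CPM) were far above the others, which reached 63.7 and 105 CPM. Tulp1 in retina IP 4 (32.3 CPM, others up to 15.2) and Pde6c in retina IP 3 (9.16 CPM, others up to 2.06) were likewise high. Gngt2 was low in ONH 5 (0.810 CPM, others 4.88 to 5.48). The cone channel genes appeared in single nerve libraries: Cnga3 in ONH 6 (0.674 CPM, others 0), Cngb3 in ONH 4 (1.71 CPM, others up to 0.0449) and Cngb3 in ONP 1 (0.485 CPM, others 0).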

How the results depend on the processing

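Of 1640 recalculations of 77 results under other settings, 1319 of the single-gene values and 167 of the counts kept their direction and side of the threshold or stayed within 1.5 times the main count. Retina IP against input was called for 0 genes by edgeR and for 193 without the low-count filter, 2032 by DESeq2, 49 without inputs 1 and 2, 2582 in the fit of all 26 libraries, and 0 to 381 when a library was left out (381 without retina IP 1, 246 without retina IP 5, 1 without input 2). Members called went from 0 to 12 with DESeq2 and 6 with all 26 libraries, all lower. Rp1 ran from -1.08 to 0.18 over the leave-outs, turning positive (0.1759) without input 4, and Arr3 came to 0.2003 with limma-voom.

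Retina IP against nerve depended on the adaptors. In the order batch term, batch term without the ONH adaptor, batch term without the ONP adaptor, and batch 2 alone, genes called were 5532, 4118, 2984 and 818 against ONH IP and 5371, 4689, 2155 and 1690 against ONP IP. Members called, lower unless stated, were 31, 3, 31 and 29 against ONH IP (and 2 with 20 IP libraries and no batch term), and 2, 1, 4 and, higher, 2 against ONP IP. Without the ONP adaptor, 31 of 33 tested members were lower against ONH IP, where 2262 of 16264 genes were. Against ONP IP, 4 of 33 members were lower, where 1588 of 16264 genes were, so those 4 are not a result about the members. Batch 2 alone left 1 library for each nerve region, so its counts carry no error between nerve libraries and describe no group. Log2 fold changes against ONH IP, in the order batch term, without the ONH adaptor, without the ONP adaptor, 20 libraries with no batch term, and batch 2 alone, were -3.943, -1.87, -4.71, -1.975 and -4.518 for Gnat1, -3.53, -0.6044, -4.373, -1.676 and -4.187 for Gnat2, -4.652, -2.762, -5.387, -2.657 and -5.2 for Sag, and -3.559, -1.831, -4.11, -1.374 and -3.923 for Arr3. For Unc119 they were -2.765, -3.663, -1.051 and -3.486, with no reversal without the ONH adaptor. Against ONP IP, the batch term gave -0.647 for Gnat2, -0.5141 for Sag and -1.272 for Unc119; without the ONP adaptor it gave -1.059 for Gnat1, -2.026 for Gnat2, -1.582 for Sag, -0.1033 for Arr3 and -2.589 for Unc119. Scaling by library totals alone put Gnb1 at 0.08353 against ONP IP and moved the median of all genes to 0.13 against ONH IP and 0.20 against ONP IP.

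For ONH IP against ONP IP, 2445 genes were called (1264 higher, 1181 lower), 1523 higher and 920 lower with library totals, 3806 with the replicate block, 988 in one fit of 18 IP libraries, and 1220 to 3125 over the leave-outs (1220 without ONH 1, 1422 without ONH 3, 1432 without ONP 4, 1588 without ONP 6). Members called were 11 with limma-voom, 21 with the replicate block and 18 to 23 over the leave-outs. The 11 and the 21 were all higher, where 1200 and 1842 of 14753 genes were called higher. The block lost Gnat2 and Nrl and gained Crx (adjusted p = 0.0283). The block moved no count of members against input (0) or against nerve (18 and 31). Same-numbered ONH and ONP libraries had correlated deviations (0.0864 to 0.495), and 5 of 6 numbers correlated best with their own, but not every pair exceeded 0.1 and the labels give no pairing; for retina IP and input the range was -0.119 to 0.246. Gngt2 came to 0.03266 with library totals, 0.08172 with limma-voom, 0.2237 with 14 nerve libraries and a batch term, and -0.22 to 0.18 over the leave-outs. Rgs9 came to 0.2999 with the 14 libraries and -0.50 to 0.09123 over the leave-outs. The causes were not tested. Cone genes rested on few counts in the nerve, which limits their precision there.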
